A study of Mus musculus with 6 samples.

Results

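Cathepsins are proteases of the lysosome, the acidic compartment in which cells break down proteins taken up from outside or delivered from within. The 10 genes described here were taken by symbol (Ctsb, Ctsc, Ctsd, Ctsf, Ctsh, Ctsk, Ctsl, Ctso, Ctss and Ctsz) from 55421 genes counted by RNA sequencing, and the choice rests on family membership, not on a measured value. The cells were mouse macrophages differentiated in culture from bone marrow. Those with the genotype Tmem175flox/flox Lyz2-Cre+/-, called KO here and also given in the labels as Tmem175-/-, gave 3 libraries. WT cells gave the other 3 libraries. In KO cells the Cre recombinase is driven by the myeloid gene Lyz2, so deletion depends on how far that gene is active in a cell. Neither floxed cells without Cre nor Cre cells without floxed alleles are among the libraries, so loss of Tmem175 and presence of Cre cannot be told apart. The libraries came from culture wells, and whether these came from separate animals is not given. The p-values may therefore rest only on variation from well to well, which may be technical. The labels give no age, sex or treatment for either group.

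Tmem175 encodes a cation channel of the lysosomal membrane that passes potassium and protons and takes part in setting lysosomal pH. Most cathepsins are cysteine proteases of the papain family, whereas Ctsd encodes an aspartic protease. They are made as inactive precursors, sorted to the lysosome largely through mannose 6-phosphate, and cut to their active forms in its acid interior. In macrophages they degrade phagocytosed material and trim proteins for presentation on MHC class II. RNA levels say nothing of the amount of mature enzyme or of its activity, neither of which was measured.

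The promoter stretches of 3 members are shown because their genes differ in level and in kind. Ctss and Ctsk are neighbours on one strand of chromosome 3 and differ widely in level, and Ctsd is the aspartic member. Each stretch is the 250 bases before the RefSeq start of the gene (GRCm38.p6), written 5′ to 3′ on the strand of the gene. Capitals mark CACGTG, the core of the element bound by the TFEB family of lysosomal regulators, and GAGGAA, a purine-rich core of the kind bound by the myeloid factor PU.1, read on both strands, so that GAGGAA on the other strand appears as TTCCTC.
Ctss, chr3:95526536-95526785, plus strand: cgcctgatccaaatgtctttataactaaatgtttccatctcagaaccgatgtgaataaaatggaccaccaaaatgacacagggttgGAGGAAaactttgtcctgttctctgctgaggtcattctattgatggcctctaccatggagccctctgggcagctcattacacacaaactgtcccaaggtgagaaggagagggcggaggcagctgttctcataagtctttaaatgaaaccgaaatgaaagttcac
Ctsk, chr3:95498960-95499209, plus strand: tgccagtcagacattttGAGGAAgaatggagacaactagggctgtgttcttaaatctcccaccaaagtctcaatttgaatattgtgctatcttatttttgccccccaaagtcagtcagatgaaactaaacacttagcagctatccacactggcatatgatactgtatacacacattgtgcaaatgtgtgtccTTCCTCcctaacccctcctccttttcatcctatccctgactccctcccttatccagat
Ctsd, chr7:142387828-142388077, minus strand: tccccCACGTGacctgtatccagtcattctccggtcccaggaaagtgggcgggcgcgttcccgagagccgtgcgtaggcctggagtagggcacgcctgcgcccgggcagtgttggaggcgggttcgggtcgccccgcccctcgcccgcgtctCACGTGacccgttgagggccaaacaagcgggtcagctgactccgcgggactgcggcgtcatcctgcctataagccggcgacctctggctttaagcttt
The search covered 250 bases before to 50 bases after the start, for the 8 members with a RefSeq entry among 32851 promoters. CACGTG was present in 3 of the 8 (Ctsd, Ctsf and Ctsl) and in 7.15% of all promoters. GAGGAA was present in 3 of the 8 (Ctsc, Ctsk and Ctss) and in 28.3% of all promoters. The motifs do not overlap each other in these windows. Ctsd held CACGTG at both −245 and −98, counted from 0 at the start base, Ctsf held it at −79 and Ctsl at −236. In GENCODE M21, the gene annotation used here for lengths, these minus-strand genes begin further upstream, at 142388038 for Ctsd and 64370890 for Ctsl. The CACGTG at −98 in Ctsd and the CACGTG in Ctsl thus lie inside the genes as annotated there. Ctss held GAGGAA at −164 and again on the opposite strand at 0, the start base itself. The Ctsd window had a GC content of 67.3% with 33 CG pairs, whereas those of Ctss and Ctsk had 44.0% and 43.7% with 5 and 2 CG pairs, against medians of 52.7% and 7 over all promoters. These matches are descriptions of sequence and no binding was measured. Ctsb and Ctsh had no entry in the promoter table.

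Total counts per library were 25979430 to 31542741 in KO and 24179548 to 25916709 in WT. Levels are given in CPM, the counts of a gene relative to the library total, after TMM scaling, which adjusts the totals to the bulk of genes. Tmem175 had 14.3, 13.2 and 12.1 CPM in KO and 32.8, 33.4 and 33.2 CPM in WT. The log2 fold change of Tmem175 was −1.33 (SE 0.07, edgeR adjusted p = 6.01e-05). Tmem175 shares 2090 exon bases with Dgkq on the opposite strand, which had 434 to 546 counts in KO and 361 to 430 in WT. The strand setting of the counting is not given, so reads of Tmem175 and Dgkq in these bases cannot be told apart. Lyz2, the gene that carries Cre, had 23166 to 26123 CPM in KO and 41780 to 49822 CPM in WT (log2 fold change −0.89, edgeR adjusted p = 0.00415). Of the 8 macrophage markers, Lyz2 was the one called, and the other markers of this type, such as Csf1r and Adgre1, were present in all libraries. The 9 neutrophil markers summed to 603 to 643 CPM in KO and 355 to 501 CPM in WT, and 0 of them was called by edgeR. S100a8, S100a9 and Ngp carried that sum, with log2 fold changes of 0.70, 0.61 and 0.47. Their edgeR adjusted p-values were 0.0521, 0.152 and 0.881, so S100a8 lay just above the threshold. Camp and Ly6g had 0.15 and 0.29, and Mpo, Elane, Ctsg and Prtn3 had −0.76, −0.44, −0.47 and −0.07. The 7 fibroblast markers summed to 23.9 to 48.3 CPM in KO and 15.7 to 65.3 CPM in WT, and those of dendritic cells, of T, B and NK cells and of mast cells and basophils to 15.2 to 22.0, 80.4 to 112 and 12.6 to 18.9 CPM in KO and 19.0 to 27.6, 109 to 167 and 18.9 to 26.7 CPM in WT. Nearly all of the T, B and NK sum was Cd4, and the other 7 markers of that list summed to 2.66 to 3.96 CPM in KO and 5.01 to 5.88 CPM in WT.

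Several cathepsins were among the most counted genes of these macrophages. The 10 genes together took 3.82%, 3.39% and 3.51% of counts in KO libraries and 3.51%, 3.59% and 3.44% in WT libraries. By CPM, Ctsb ranked 3, Ctsd 8 and Ctss 10 among all genes, so that 3 members were among the 20 highest. Ctsz ranked 33, Ctsl 188, Ctsc 255 and Ctsh 256, whereas Ctso, Ctsk and Ctsf ranked 2922, 4312 and 6340. CPM does not allow for transcript length, which a comparison between genes needs.

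Per length the order changed, both at the top and among the lower members. TPM, a count divided by transcript length and scaled to the same sum in every library, computed on the union of annotated exons, put Ctss first at 14609 ± 972 TPM (SD over all 6 libraries), rank 5 of all genes. Ctsd and Ctsb followed at 9164 ± 608 and 9043 ± 521 TPM, and their ranges overlapped. Ctsz, at 3939 ± 213 TPM, stood 11.6-fold above Ctsh, the widest step in this order. Ctsh had 338 ± 24.7, Ctsl 273 ± 15.4 and Ctsc 262 ± 12.2 TPM, and Ctsl and Ctsc overlapped. Ctsk had 84.4 ± 7.68, Ctso 39.8 ± 1.51 and Ctsf 12.8 ± 2.11 TPM. Between the highest, Ctss, and the lowest, Ctsf, lay 1145-fold in TPM on union exons, but 477-fold with the longest transcript and 451-fold with the lowest-numbered protein-coding transcript of each gene. On union exons, Ctss, Ctsd, Ctsb and Ctsz made up 97.3% to 97.4% of the summed cathepsin TPM in every library. Every other pair of neighbours in the order had ranges that did not overlap. The places of Ctss, Ctsz, Ctsk, Ctso and Ctsf in the order were the same under each of the 4 ways to define length, but those of the other members moved by a place. The steps depended on the length: Ctsz stood 4.19-fold above Ctsh with the lowest-numbered transcript, where the widest step was that of Ctsc over Ctsk (7.24-fold), and 7.10-fold with the longest transcript. With the bases that no other gene shares, Ctsd had 13219 ± 866 TPM and overlapped Ctss at 13830 ± 916 TPM (SD over all 6 libraries).

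**Figure D1:**
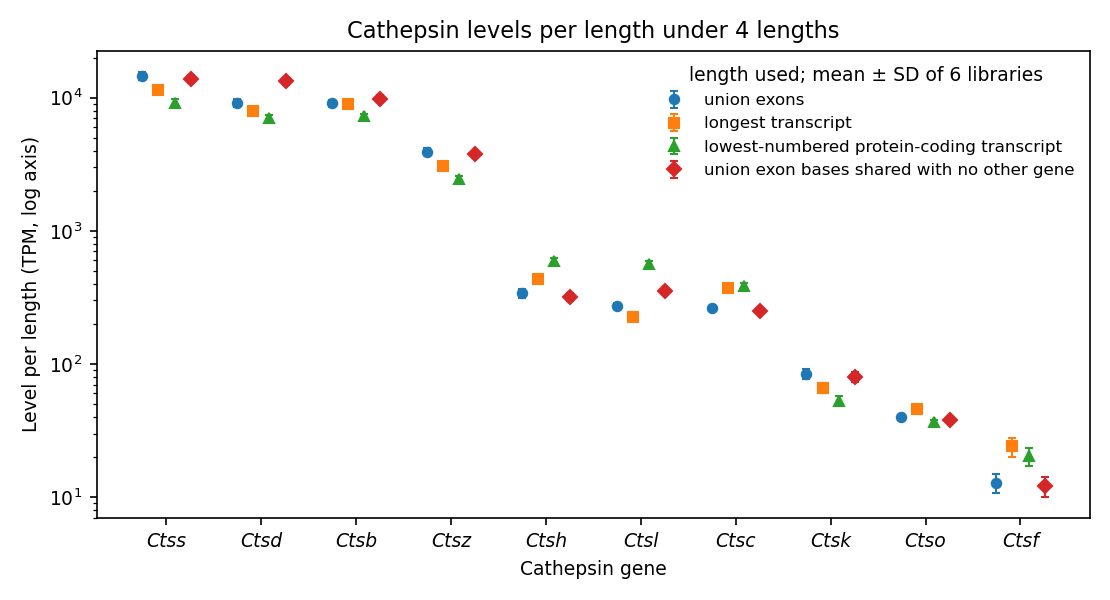
Level per length of the 10 cathepsins, in TPM on a log axis, as mean ± SD of the 6 libraries under each of 4 ways to define length. On union exons Ctss is highest at 14609 TPM and Ctsf lowest at 12.8 TPM, and under each length 4 members stand well above the other 6.

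The counting itself limits some of these levels. Ctsd shares 808 exon bases on the same strand with the annotated gene Gm49369, which had 0 counts in all 6 libraries, and a counter that drops reads of shared bases would set Ctsd too low. The exons of Ctsb overlap Fdft1 on the opposite strand over 774 bases. Fdft1 had 507 to 735 counts in KO and 403 to 574 in WT, few beside the counts of Ctsb. A counter that ignores strand and drops reads of shared bases would set Ctsb too low too, whatever the level of Fdft1. Ctsl shares bases with the antisense gene Gm47123 and the pseudogene Gm49230, both at 0 counts, and only in its 6168-base transcript Ctsl-205, not in the 1971-base Ctsl-201. A stretch of 310 bases of Ctsh resembles the pseudogene Gm5398 at 90.6% identity, and Gm5398 had 0 counts.

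Set against WT, KO macrophages showed no cathepsin past the test. Of 13588 genes tested, edgeR called 14 (0.103%) at an adjusted p under 0.05, 2 higher in KO (0.0147%) and 12 lower (0.0883%), and 0 of the 10 cathepsins was among them. DESeq2 (0.294% of genes called) and limma-voom (0.11%) also called 0 of the 10. At an unadjusted p under 0.05, each of the 3 tools gave 1 cathepsin, Ctsc, against 5.44% of all genes with edgeR, 3.14% with DESeq2 and 5.37% with limma-voom. The log2 fold change was above 0 for 4 members and below 0 for 6, with a median of −0.03 beside −0.0009 over all genes tested. The median size of the log2 fold change, without regard to sign, was 0.05 for the members and 0.07 for all genes tested. Over the 1977 genes tested that averaged 100 CPM or more it was 0.034, below that of the members. For 9 of the 10, the 95% interval of the fold, KO over WT, lay within 0.8 to 1.25, and Ctsf was the exception. The share of all genes tested within these bounds was not computed, so this count does not set the family apart from other genes. In bulk RNA, fewer cells of a type and less RNA per cell cannot be told apart.

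**Figure D2:**
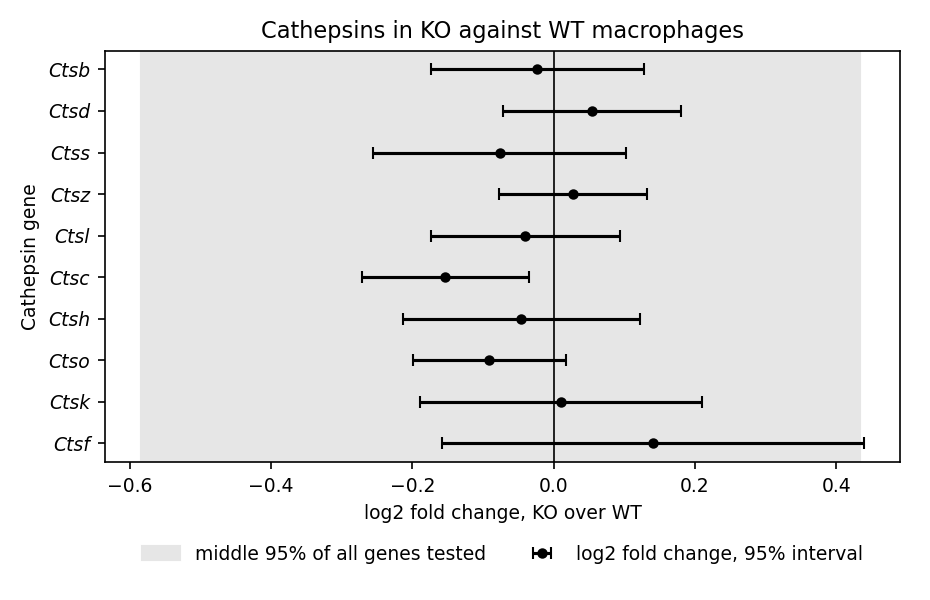
Log2 fold change, KO over WT, of each cathepsin with its 95% interval from edgeR, and in grey the middle 95% of the log2 fold changes of all genes tested, −0.58 to 0.43. Values lie between −0.15 (Ctsc) and 0.14 (Ctsf), and the interval of Ctsc alone leaves out 0.

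The aspartic protease Ctsd (ENSMUSG00000007891, chromosome 7, 142375911 to 142388038, minus strand, on GRCm38 in GENCODE M21 as for all genes here) cuts proteins in the lysosome and activates other precursors. Ctsd had 7715, 6915 and 7196 CPM in KO and 6874, 6971 and 7180 CPM in WT. KO libraries 1 and 3 lay above every WT library and KO library 2 lay inside the WT range. Means were 7275 ± 405 CPM in KO and 7008 ± 156 CPM in WT (SD, n = 3 each), and Ctsd had a log2 fold change of 0.05 (95% interval −0.07 to 0.18, edgeR adjusted p = 0.972).

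Among the cysteine endopeptidases, Ctsb (ENSMUSG00000021939, chromosome 14, 63122462 to 63145923, plus strand), which also removes dipeptides from the C-terminus of proteins, gave the most counts. Ctsb had 19626, 16755 and 17641 CPM in KO and 18241, 18808 and 17855 CPM in WT. The highest and the lowest of the 6 libraries were both KO, so the KO range enclosed that of WT. Its log2 fold change was −0.02 (95% interval −0.17 to 0.13, edgeR adjusted p = 0.98).

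Ctss (ENSMUSG00000038642, chromosome 3, 95526786 to 95556403, plus strand) encodes the protease that removes the last part of the invariant chain from MHC class II in antigen-presenting cells and that stays active at neutral pH. Its promoter stretch is the first shown above. Ctss had 7225, 5688 and 6331 CPM in KO and 6769, 6815 and 6708 CPM in WT. The WT libraries lay close together, with an SD of 53.7 CPM around a mean of 6764, whereas the KO libraries spread on both sides of them, with an SD of 772 around 6415 CPM. The log2 fold change was −0.08 (95% interval −0.26 to 0.10, edgeR adjusted p = 0.972). Without the first KO library it was −0.17 and without the second 0.01.

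Ctsl (ENSMUSG00000021477, chromosome 13, 64359337 to 64370890, minus strand) encodes a broad lysosomal endopeptidase that in the thymus takes the role of Ctss in epithelial cells. Ctsl had 617, 551 and 570 CPM in KO and 618, 611 and 558 CPM in WT. Both groups spread over about the same range. Ctsl had a log2 fold change of −0.04 (95% interval −0.17 to 0.09, edgeR adjusted p = 0.979).

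Ctsk (ENSMUSG00000028111, chromosome 3, 95499256 to 95509362, plus strand) encodes the collagen-degrading protease of osteoclasts, the bone-resorbing relatives of macrophages, and its start lies upstream of Ctss with 17423 bases between the genes. Ctsk had 46.7, 41.4 and 39.3 CPM in KO and 41.0, 38.2 and 47.4 CPM in WT, with overlapping groups and a log2 fold change of 0.01 (95% interval −0.19 to 0.21, edgeR adjusted p = 0.994). In TPM, Ctss exceeded Ctsk 172-, 153- and 179-fold in KO and 184-, 199- and 158-fold in WT. The ratio between these neighbours thus overlapped between the genotypes, at 168 ± 13.6 in KO and 180 ± 20.8 in WT (SD, n = 3 each). The 8 osteoclast markers summed to 560, 314 and 391.6 CPM in KO and 553, 523 and 374 CPM in WT. Of these, Atp6v0d2, a subunit of the proton pump, had 316, 132 and 197 CPM in KO and 311, 294 and 179 CPM in WT, and Calcr, the calcitonin receptor that marks osteoclasts, was at 0 counts in all libraries.

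Ctsf and Ctso had the lowest levels per length of the family. Ctsf (ENSMUSG00000083282, chromosome 19, 4855130 to 4860918, plus strand), whose product can also process the invariant chain in macrophages, had 19.9, 23.7 and 23.5 CPM in KO and 19.2, 16.7 and 24.8 CPM in WT. Its log2 fold change of 0.14 was the highest of the family, but the highest library was the third WT one and the 95% interval ran from −0.16 to 0.44 (edgeR adjusted p = 0.971). Without that WT library the log2 fold change was 0.32 (edgeR adjusted p = 0.541), and without the second WT library, the lowest, it was 0.02. Ctso (ENSMUSG00000028015, chromosome 3, 81932601 to 81956725, plus strand), a papain-family member of little known function, had 65.3, 64.5 and 66.9 CPM in KO and 69.0, 73.1 and 67.5 CPM in WT. All 3 KO libraries lay below all 3 WT libraries, the nearest pair being 66.9 CPM in KO and 67.5 CPM in WT. Ctso had a log2 fold change of −0.09 (95% interval −0.20 to 0.02, edgeR adjusted p = 0.941).

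The exopeptidases remove residues from the ends of proteins. Ctsc (ENSMUSG00000030560, chromosome 7, 88278085 to 88310888, plus strand) encodes dipeptidyl peptidase I, which activates the serine proteases of neutrophil, mast cell and cytotoxic lymphocyte granules. Ctsc had 467, 484 and 485 CPM in KO and 497, 543 and 557 CPM in WT. The KO libraries lay close together and below all WT libraries. Means were 479 ± 10.04 CPM in KO and 533 ± 31.3 CPM in WT (SD, n = 3 each), a fold of 0.899. On the log2 scale the difference was −0.15 (SE 0.05, 95% interval −0.27 to −0.03). The unadjusted p was 0.0167 and the adjusted p 0.863 with edgeR, so the difference did not pass the test over all genes. The granule proteases that dipeptidyl peptidase I activates were low in both groups: Elane, Prtn3 and Ctsg had 4.69 to 6.69, 4.39 to 5.55 and 1.71 to 3.01 CPM in KO and 5.41 to 9.41, 4.53 to 6.62 and 1.99 to 3.70 CPM in WT.

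Ctsh (ENSMUSG00000032359, chromosome 9, 90054152 to 90076089, plus strand) encodes the main aminopeptidase among the cathepsins. Ctsh had 560, 457 and 474 CPM in KO and 527, 522 and 490 CPM in WT. As for Ctss, the first KO library was the highest of all 6 and the second the lowest. The log2 fold change was −0.05 (95% interval −0.21 to 0.12, edgeR adjusted p = 0.979), and it was −0.14 without the first KO library and 0.01 without the second. Ctsz (ENSMUSG00000016256, chromosome 2, 174427493 to 174439039, minus strand) encodes a carboxypeptidase that removes single residues. Ctsz had 1917, 1884 and 1897 CPM in KO and 1813, 1844 and 1935 CPM in WT. Its 3 KO libraries fell inside the WT range, and the log2 fold change was 0.03 (95% interval −0.08 to 0.13, edgeR adjusted p = 0.979).

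Ctsc and Ctso were thus the 2 members whose groups did not overlap, both lower in KO. Over all genes tested, 5.06% had groups that did not overlap with KO lower and 5.73% with KO higher, 10.8% in all. Of all genes tested, 24.9% had a log2 fold change larger in size than that of Ctsc, the largest of the family. The share among genes of a level like that of Ctsc was not computed. The separation of Ctsc and Ctso rests on the scale: in TPM, Ctsc had 247, 268 and 259 in KO and 249, 276 and 274 in WT, and Ctso 39.2, 40.4 and 40.5 in KO and 39.2, 42.0 and 37.6 in WT, so both overlapped. In TPM the groups of 1.44% of genes did not overlap with KO lower and those of 27.5% with KO higher.

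**Figure D3:**
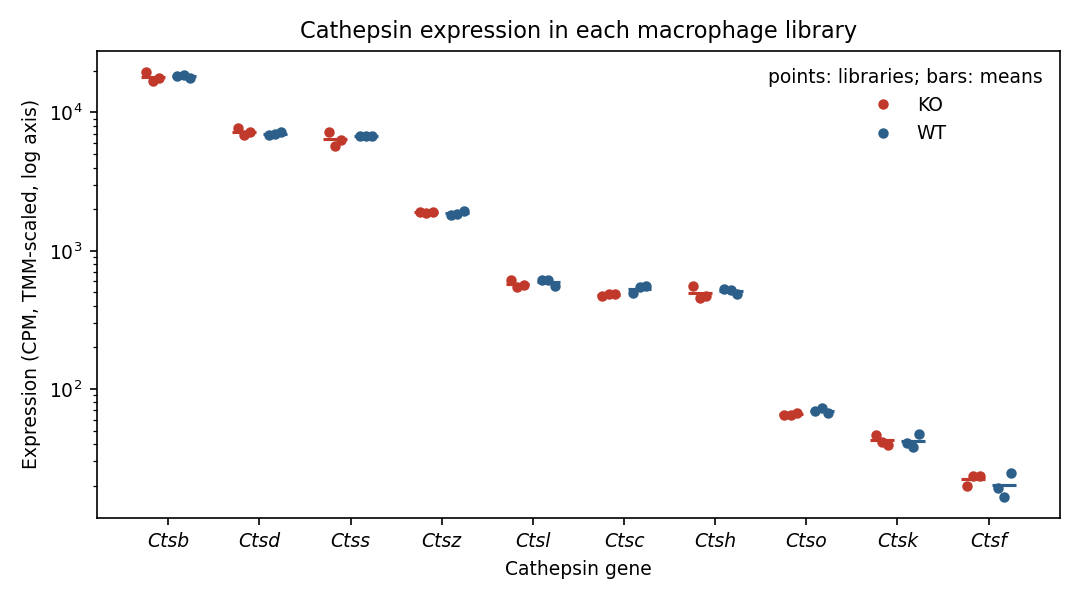
CPM of each cathepsin on a log axis, with a point for every library, KO left and WT right, and a bar at the group mean. The groups overlap for 8 genes, and for Ctsc and Ctso all KO points lie below all WT points.

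The spread between libraries differed among the members. The SD of log2 CPM within a group was 0.04 for Ctsz and 0.05 for Ctso, the lowest of the family, and 0.12 for Ctss and Ctsh, 0.14 for Ctsk and 0.23 for Ctsf, the highest. The median over the members was 0.085, beside 0.110 over all genes tested with counts in every library and 0.059 over the 1977 genes that averaged 100 CPM or more. Counting error alone would give a coefficient of variation of 0.143% for Ctsb and 4.17% for Ctsf. The highest library exceeded the lowest 1.07-fold for Ctsz, 1.27-fold for Ctss and 1.49-fold for Ctsf.

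Single libraries set much of that spread. The first KO library was the highest of 6 for 4 members (Ctsb, Ctsd, Ctsh and Ctss), as it was for 17.2% of all genes tested. The second KO library was the lowest for 5 (Ctsb, Ctsh, Ctsl, Ctso and Ctss), against 18.6% of all genes. The third WT library was the highest for another 4 (Ctsc, Ctsf, Ctsk and Ctsz), against 18.4% of all genes. The median deviation of the members from their own mean log2 CPM was 0.09, −0.06 and −0.04 in the 3 KO libraries and −0.01, 0.05 and 0.02 in the 3 WT libraries. The same first and second KO libraries were the highest and lowest for the summed osteoclast markers given above, and for Lgmn, the lysosomal asparaginyl endopeptidase, with 1802, 1343 and 1502 CPM in KO and 1726, 1747 and 1473 CPM in WT. Among the larger osteoclast markers, Acp5 and Atp6v0d2 had this pattern. Itgb3 was lowest in the second KO library but highest in the first WT library (96.6 CPM). Nfatc1 was highest in the second KO library (72.2 CPM). The part of osteoclast-type transcripts in the spread of the cathepsins was not tested.

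**Figure D4:**
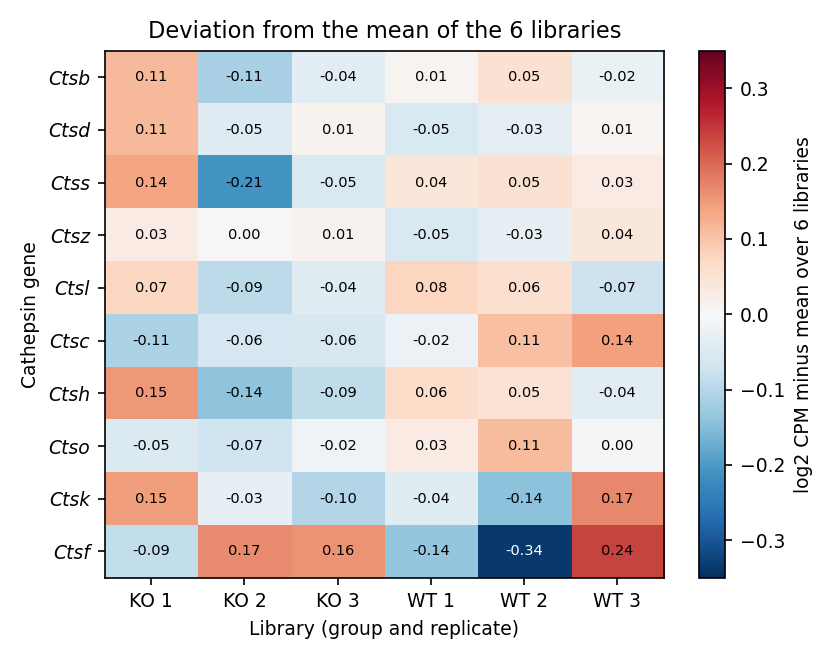
Deviation of log2 CPM from the mean of each cathepsin over 6 libraries, KO columns left of WT columns. The first KO library is above the mean for 7 of the 10 members and the second for 2.

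The summed level of the family did not separate the genotypes. It was 38259, 32865 and 34723 CPM in KO and 35468, 36241 and 35422 CPM in WT, with means of 35283 ± 2740 CPM in KO and 35711 ± 460 CPM in WT (SD, n = 3 each). Ctsb made up 51.0% of it in KO and 51.2% in WT, and Ctsd 20.6% in KO and 19.6% in WT. Of the summed TPM, in which length is allowed for, Ctss made up 37.9% ± 1.49 in KO and 39.5% ± 0.34 in WT, Ctsd 24.9% ± 0.633 in KO and 23.6% ± 0.493 in WT, and Ctsb 23.9% ± 0.151 in KO and 24.0% ± 0.544 in WT (SD, n = 3 each).

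Most other cathepsins had no counts. Of 12 listed, 8 had 0 counts in every library (Ctsj, Ctsm, Ctsq, Ctsr, Cts3, Cts6, Cts7 and Cts8, which in mice are largely placental), where 3 counts would have been 0.0952 to 0.125 CPM per library. Ctsa, a serine carboxypeptidase, had 1506, 1358 and 1453 CPM in KO and 1444, 1508 and 1418 CPM in WT. Ctse, an aspartic protease, had 14.1, 15.3 and 15.1 CPM in KO and 12.5, 11.6 and 14.9 CPM in WT, and 0 of the 3 tested was called.

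Among inhibitors of cathepsins, Cst3 and Cstb were abundant, at 2690 and 2125 TPM per length over all 6 libraries, below Ctsz at 3939 TPM and above Ctsh at 338 TPM. Cst3, the secreted cystatin C, had 1133, 1189 and 1202 CPM in KO and 1022, 1027 and 1193 CPM in WT (log2 fold change 0.12), and Cstb, the cytosolic cystatin B, 441, 409 and 440 CPM in KO and 415, 446 and 397 CPM in WT (0.04). Serpinb6a, a cytosolic serpin, had 411, 411 and 417 CPM in KO and 401, 385 and 367 CPM in WT, groups that did not overlap (log2 fold change 0.10, unadjusted p = 0.0518 with edgeR). Stfa2l1, of the stefin A family, was at 0.857, 0.799 and 1.45 CPM in KO and 0.543, 0.657 and 0.716 CPM in WT, and the mouse stefin A genes are near copies whose reads the counting could split. Of 16 listed, 8 were tested and 0 called, with a median log2 fold change of 0.07.

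The sorting and maturation machinery was close to even. Psap, the precursor of the saposins, had 22635, 20426 and 21072 CPM in KO and 21338, 20800 and 21206 CPM in WT. The mannose 6-phosphate receptors M6pr and Igf2r had log2 fold changes of 0.00 and 0.04, and Sort1, the sorting receptor sortilin, −0.08. All 12 were tested, 0 was called, and the median log2 fold change was −0.0009. Of 8 other lysosomal proteases, among them Tpp1 (−0.02), Dpp7 (0.08) and Cpq (−0.13), 0 was called and the median was −0.01. The MiT/TFE factors, which switch on lysosomal genes, had log2 fold changes of 0.00 for Tfeb, −0.01 for Tfe3, −0.04 for Mitf and −0.01 for Tfec, and 0 of the 4 was called.

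Genes that work with cathepsins in antigen processing lay lower in KO without a call. Cd74, the invariant chain that Ctss cleaves, had 2115, 1393 and 1783 CPM in KO and 2109, 2241 and 2643 CPM in WT. The first KO library lay just above the lowest WT library, and the other KO libraries lay below all WT libraries. The log2 fold change of Cd74 was −0.40 (unadjusted p = 0.0156 with edgeR), that of H2-Aa −0.40, of H2-Ab1 −0.40 and of H2-DMa −0.26. H2-Ab1, a chain of the class II molecule, had 638, 426 and 534 CPM in KO and 656, 673 and 776 CPM in WT, groups that did not overlap. All 8 had a log2 fold change below 0, with a median of −0.33, 5 had an unadjusted p under 0.05, as did 5.44% of all genes, and 0 was called, the lowest adjusted p with edgeR being 0.795. Among these genes too, the second KO library was the lowest and the first KO library the highest of the KO group, as for Ctss. Markers of other cells that carry class II were low and mostly lower in KO too. Of the 7 dendritic cell markers 5 had a log2 fold change below 0 (among them Flt3 −0.74 and Siglech −0.75), with a median of −0.38. The markers of this list above 0 were Cd209a (0.70) and Xcr1 (0.47). Cd79a and Ms4a1, which mark B cells, had −1.01 and −1.36. Their means were 1.04 and 0.712 CPM in KO and 2.08 and 1.81 CPM in WT. None of these was called by edgeR, and their part in the class II values was not tested. Whether the class II genes and the cathepsins differ from each other in their response was not tested.

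**Figure D5:**
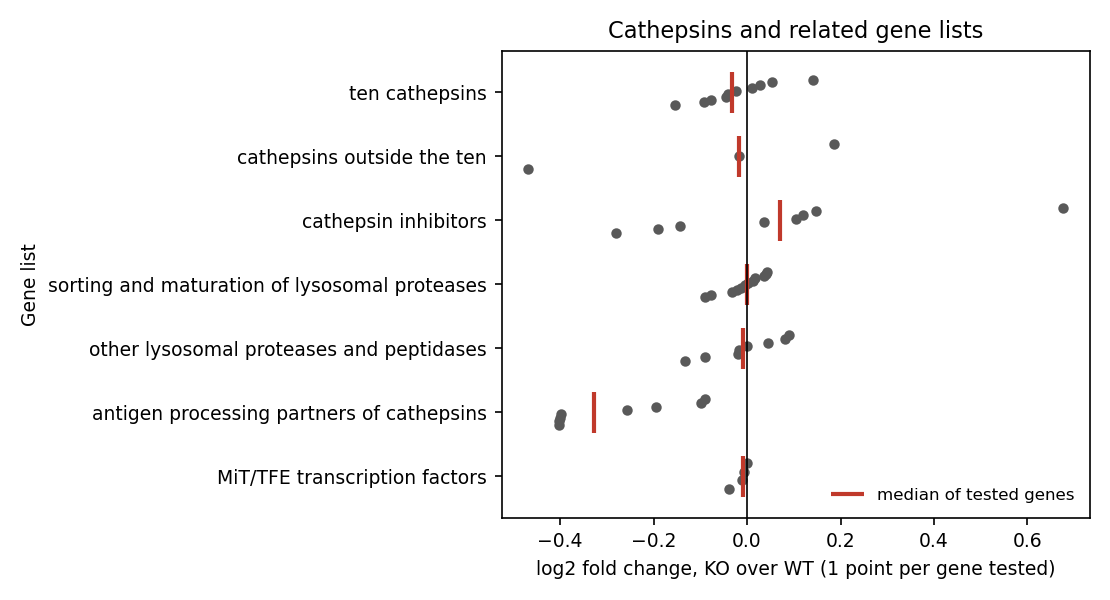
Log2 fold change, KO over WT, of each gene tested in the cathepsin family and in 6 related lists, with a bar at the median of each. The antigen processing partners lie below 0 with a median of −0.33, and the median of the 10 cathepsins is −0.03.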

How the data were processed

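RNA of 3 KO and 3 WT libraries was sequenced. TRIzol lysates went into libraries made with a SMARTer mRNA kit, per the labels' protocols. The authors deposited 1 table of raw counts per Ensembl gene, for which the submitters' processing notes name HISAT2, featureCounts and GRCm38. The sources used here do not give tool versions, annotation release or strand setting, so reads of overlapping genes cannot be told apart.

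From these counts, CPM (TMM), and TPM on union exon lengths of GENCODE M21 (same build; 55240 of 55421 IDs matched), were computed. TPM served for the order and shares between genes, not for the test of KO against WT. KO was compared with WT by edgeR 4.0.16 (filterByExpr, two-sided quasi-likelihood test, genotype as the only term, default options, Benjamini-Hochberg over 13588 genes, called under 0.05) in R 4.3.3. DESeq2 1.42.0, limma 3.58.1 (voom), other scalings and filters, the replicate block and leaving out each library were alternatives. The scripts were tested on simulated data. Near-copies were sought with BLAST 2.17.0 (at least 250 bases at 90% identity). Intervals are 95%.

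The members were listed by family, and this list, the related lists and the motifs were chosen with earlier results of these data known. Named genes are all 10 members and, of each related list, the called genes, the 3 highest by CPM and 2 with the smallest p. Igf2r, Tfec and single markers of other cell types were named outside this rule after their values were seen. So were the genes at 0 counts, those that overlap or resemble a member, and Dgkq, which overlaps Tmem175. Csta2 and Csta3 are not in the annotation used here.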

Additional observations from a re-analysis of the deposited data

How the results depend on the processing

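The count of called cathepsins was 0 under all 18 alternatives, but the directions of the small log2 fold changes depended on scaling and on single libraries. Ctsc stayed below 0 under all 18 (−0.20 to −0.05, adjusted p 0.484 to 1.00), and Ctsd, Ctsf and Ctsz stayed above 0. With library totals, Ctsb had 0.0185 and Ctsl 0.00185, where the median of all genes was 0.04. TPM totals, an alternative chosen after seeing the data, moved the median of all genes to 0.11, and gave Ctsb 0.0821, Ctsl 0.0656, Ctsh 0.0593, Ctss 0.0284 and Ctso 0.0155. With Lyz2 left out of the TPM sum, also chosen after seeing the data, the median was 0.04, Ctsb 0.0168 and Ctsl 0.000515. Leaving out 1 library gave −0.0877 to 0.0285 for Ctsb, −0.139 to 0.0136 for Ctsh, −0.063 to 0.103 for Ctsk and −0.168 to 0.00558 for Ctss. Without the first KO library, Ctsc (0.0427), Ctsh (0.0268) and Ctss (0.0161) had an unadjusted edgeR p under 0.05, and adjusted p of 0.565, 0.512 and 0.471. Ctsc had an unadjusted p over 0.05 with library totals (0.0619), TPM totals (0.43), TPM totals without Lyz2 (0.0763), and without the second (0.0619) or the third WT library (0.0562). The unadjusted edgeR p was 0.0122 for Ctsf without the third WT library, and 0.00457 for Ctsd and 0.00999 for Ctsz with TPM totals. The log2 ratio of the summed CPM was −0.02, and 0.0884 with TPM totals.

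Genes called numbered 14, and 40 with DESeq2, 151 with no filter (25959 genes tested), 5 with a mean of at least 10 CPM (8247 tested), 22 with TPM totals, and 4 to 12 without 1 library. Of the antigen processing partners, 5 were called with no filter. In the order per length, Ctsb took place 2 and Ctsd 3 with the longest or the lowest-numbered protein-coding transcript, Ctsc 6 and Ctsl 7 with the longest transcript, and Ctsl 5 and Ctsh 6 with exon bases shared with no other gene. The lowest-numbered transcript and the unshared bases were chosen after seeing the data. The causes were not tested.

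Same-numbered libraries had deviation correlations of 0.15, −0.18 and 0.06, and differently numbered ones had −0.27 to 0.25. Deviations from a mean of 3 libraries depend on each other. These values therefore cannot decide whether the replicate numbers pair the samples. With the replicate number as a block, 17 genes and 0 cathepsins were called, with log2 fold changes of −0.15 for Ctsc and the same directions for all 10 members. Ctsf had the widest interval of the family. Its coefficient of variation in CPM was 9.68% in KO and 20.7% in WT, where counting error alone would give 4.17%. For the abundant Ctsb, counting error alone would give 0.143%.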

Other observations

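The scale decided whether the groups overlapped for Ctsc, Ctso, Ctsd and Ctsz. Ctsc and Ctso did not overlap on the TMM scale and overlapped in TPM. In TPM, Ctsd had 10090, 9451 and 9481 in KO and 8515, 8736 and 8714 in WT, and Ctsz 4092, 4201 and 4078 in KO and 3664, 3769 and 3831 in WT, so that for both genes the groups did not overlap, with KO higher, as for 27.5% of all genes on that scale. On the TMM scale Ctsd and Ctsz overlapped. In the same libraries Lyz2 alone took 5.41%, 5.78% and 6.15% of all TPM in KO and 9.72%, 9.35% and 10.8% in WT. TPM totals moved the median log2 fold change of all genes to 0.11, and to 0.04 with Lyz2 left out of the sum, against −0.0009 on the TMM scale. The log2 fold changes of 0.16 for Ctsd and 0.14 for Ctsz with TPM totals are read beside that median. Under TPM totals the edgeR adjusted p was 0.179 for Ctsd and 0.181 for Ctsz, so neither was called.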
